A study of Mus musculus with 24 samples.

Results

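The Reg genes encode small secreted C-type lectins, and 5 of them (Reg1, Reg3a, Reg3b, Reg3g and Reg4) were followed here through the distal jejunum of mice that drank succinate. The members were taken by gene name alone, and all 5 were found among the 56691 genes of the count table and among the 34471 genes of the FPKM table (FPKM is a level per unit of transcript length and of library size). The 24 libraries fall into 8 groups of 3, formed by sex, genotype (wild type or germline Ptk6-/-) and treatment. Control mice drank regular water, and treated mice drank 100 mM succinate in water for 7 days. All mice were 9 to 11 weeks old at the end, on a C57BL/6 background, from different litters of 1 colony. Ptk6 is missing from every cell of the Ptk6-/- mice, so no group shows its loss in 1 cell type only. The tissue was whole jejunum, in which fewer cells of a type and less RNA per cell cannot be told apart.

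Reg3b and Reg3g are antimicrobial lectins that enterocytes and Paneth cells release into the lumen, where Reg3g binds the peptidoglycan of Gram-positive bacteria and keeps them off the villus surface. Their transcription is known to depend on bacterial signals passed through MyD88 and on the cytokine IL-22, which acts through its receptor and the transcription factor STAT3. Succinate is sensed by tuft cells, which release IL-25 and so start a type 2 response with IL-13, in which secretory cells expand. Reg4 is a distant relative that goblet, enteroendocrine and deep crypt secretory cells express. Reg1 was first known from regenerating pancreatic islets, and Reg3a is another lectin of the Reg3 group.

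In the GRCm39 annotation of the FPKM table, 4 of the members lie in 1 cluster on chromosome 6, within a stretch of 98.216 kb that holds 6 Reg genes and no other listed gene. Reg3b (ENSMUSG00000071356) spans chr6:78347640-78350449 on the plus strand, Reg3a (ENSMUSG00000079516) chr6:78357692-78360810 on the plus strand, and Reg1 (ENSMUSG00000059654) chr6:78399694-78405650 on the plus strand. Reg3g (ENSMUSG00000030017) closes the cluster at chr6:78443252-78445855 on the minus strand. Reg2 and Reg3d stand between them. Reg4 (ENSMUSG00000027876) is on chromosome 3, at chr3:98129472-98144064 on the plus strand.

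The 200 bases before the transcription start are shown for the pair of genes that moved together (Reg3b and Reg3g), for the other Reg3 member, and for Reg4, which moved the other way. They come from RefSeq in build GRCm38.p6, which is not the build of the tables, and read 5′ to 3′ on the strand of the gene. Capitals mark matches to TATAAA, to TTCNNNGAA or to the STAT-type motif with 1 more base in its middle, on either strand, the last 2 being forms that STAT factors are known to bind. The windows are chr6:78370685-78370884 for Reg3b, chr6:78468875-78469074 for Reg3g, chr6:78380509-78380708 for Reg3a and chr3:98221956-98222155 for Reg4.
Reg3b: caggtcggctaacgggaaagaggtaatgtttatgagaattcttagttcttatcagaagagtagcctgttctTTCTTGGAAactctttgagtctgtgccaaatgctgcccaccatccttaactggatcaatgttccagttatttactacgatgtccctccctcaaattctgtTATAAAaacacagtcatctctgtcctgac
Reg3g: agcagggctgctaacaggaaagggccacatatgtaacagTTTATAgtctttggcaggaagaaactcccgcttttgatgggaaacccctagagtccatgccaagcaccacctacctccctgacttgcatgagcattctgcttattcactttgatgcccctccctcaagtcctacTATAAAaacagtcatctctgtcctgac
Reg3a: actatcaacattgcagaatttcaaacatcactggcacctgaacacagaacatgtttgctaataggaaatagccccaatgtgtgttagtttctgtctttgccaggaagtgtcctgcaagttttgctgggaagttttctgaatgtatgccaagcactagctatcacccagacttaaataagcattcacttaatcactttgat
Reg4: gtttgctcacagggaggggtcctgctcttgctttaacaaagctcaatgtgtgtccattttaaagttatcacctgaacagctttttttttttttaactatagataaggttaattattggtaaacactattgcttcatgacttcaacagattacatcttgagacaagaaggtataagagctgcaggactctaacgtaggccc

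Reg3b and Reg3g shared the 20 bases next to the start, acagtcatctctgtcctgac, and a TATAAA that begins 29 bases before the start in Reg3b and 27 in Reg3g. Global alignment gave 68.5% identical bases between these windows. Reg4 had 48.5% with each of them, and Reg3a had 48% with Reg3b and 49.5% with Reg3g. The Reg3a window ends in tcactttgat, a run that the Reg3g window holds before its TATAAA. Its identities and its lack of a TATAAA therefore depend on the annotated start of Reg3a, and windows shifted to match were not compared. The level for unrelated windows was not computed. Among windows not shown, Reg3d had 56% with Reg3b and 58.5% with Reg3g, and Reg1 had 60% with Reg2. The Reg3b window held 1 match to TTCNNNGAA, 129 to 121 bases before the start, and the windows of Reg3g, Reg3a and Reg4 held no match to either STAT-type motif. The windows of Reg1 and Reg2, not shown, also held a TATAAA, 30 to 25 bases before the start. Among 32851 RefSeq windows of the same length, 9.96% held TATAAA, 5.49% TTCNNNGAA and 4.53% the longer STAT-type motif. The longest run of bases shared by 2 of the reference transcripts was 35, between Reg3b and Reg3g.

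Depth ran from 8080321 to 52824743 counts per library (median 43017686.5), and levels below are CPM, the counts scaled to library size by TMM. Ptk6 had 284 to 2405 counts in the 12 wild type libraries and 7 to 61 in the 12 Ptk6-/- libraries, so the genotype labels fit the data. The sex label of 1 library did not: the library labelled female wild type succinate 2 had 74.3 CPM summed over 4 Y-linked genes, within the 33.5 to 90.2 CPM of the 12 male libraries and above the 0.971 CPM or less of the other 11 female libraries. The same library held 26144 CPM of 16 heart muscle genes, led by Myh6 at 9018 CPM, where the next highest library held 269 CPM. Of the 16 heart genes, 14 were highest there, the exceptions being Myl4 and Myl7. In 2 male libraries (wild type control 1 and Ptk6-/- succinate 1) the ribosomal gene Rn18s-rs5 took 51.2% and 29.7% of the counts, against 4.49% or less elsewhere. The members' succinate effects, the differences of these effects between the sexes and the male genotype effects are given with and without those of these libraries that they hold. The tissue label fits the enterocyte genes, with 22149 to 64184 CPM over 20 markers in all libraries. The jejunal and duodenal transcription factor Gata4 had 24.3 to 90.3 CPM, and the ileal bile acid binding protein Fabp6 had 16.2 to 8223 CPM.

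Without treatment, Reg3b was the most abundant of the 5 transcripts by the deposited FPKM. In the 12 control libraries it ranked from 4 to 38 (median 20) among all genes by FPKM, and Reg3g ranked from 32 to 85. Reg3a ranked from 417 to 1550, Reg4 from 947 to 4307 and Reg1 from 8173 to 13415. The order Reg3b, Reg3g, Reg3a, Reg4, Reg1 by FPKM held in 13 of the 24 libraries, 11 of them controls, and Reg4 stood above Reg3a in the remaining control library, female Ptk6-/- control 1. By counts Reg3g stood above Reg3b in Ptk6-/- female control 3 (469657 against 384694). The ratio of Reg3g to Reg3b there was 1.22 by counts and 0.66 by FPKM. Their reference transcripts are of similar length (783 bases for Reg3b and 771 for Reg3g), so the FPKM order of this pair depends on the lengths used for FPKM. Together the 5 genes took 0.276 to 2.02% of all counts in a control library, and 0.513 to 2.02% when Rn18s-rs5 is left out of the total.

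After succinate, Reg4 stood first by FPKM in 4 of the 6 female libraries and Reg3b in the other 2 and in all 6 male libraries. In females of both genotypes Reg4 rose 32.4-fold, while Reg3g fell 18.3-fold and Reg3b fell 16.1-fold. Reg3a had an estimate in the same direction as Reg3b and Reg3g that did not pass the test, and Reg1 had one close to 0. In males none of the 5 passed. A gene is called here at a Benjamini-Hochberg adjusted p under 0.05 over all genes tested and a fold change of at least 2, by edgeR's quasi-likelihood test. By this rule 3 of the 5 members were called in females of both genotypes, 1 higher and 2 lower, where 0.779% of 20531 genes were called (0.614% higher and 0.166% lower).

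**Figure D1:**
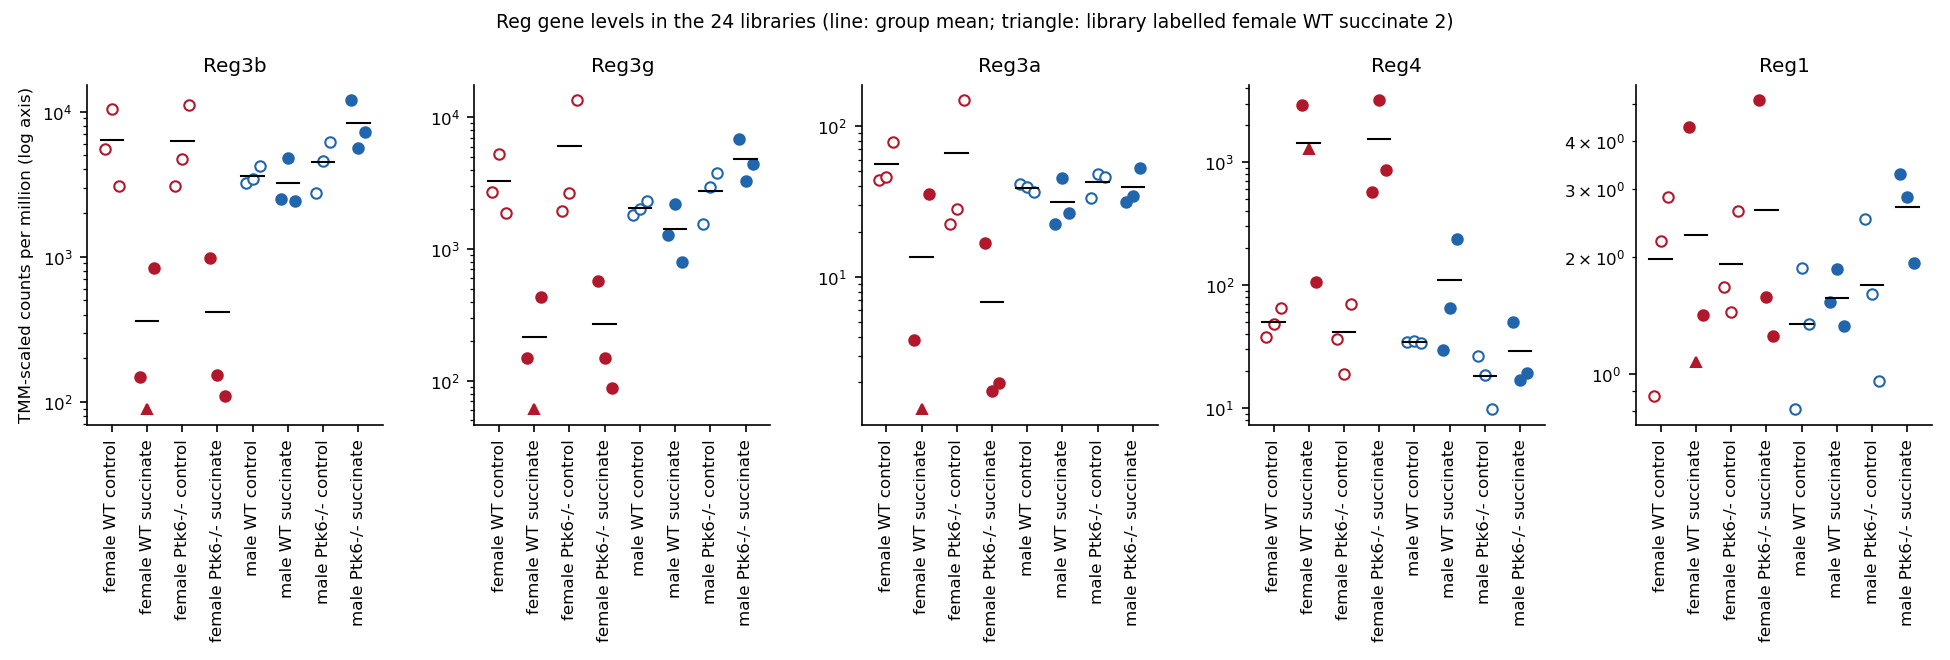
TMM-scaled CPM (log axis) of the 5 Reg genes in each library, by group, with open points for controls, filled points for succinate, red for females, blue for males and a black line at the group mean (3 libraries each). The female succinate libraries lie below all other libraries for Reg3g (at most 575 CPM) and Reg3b (at most 986 CPM), and 5 of the 6 lie above all other libraries for Reg4.

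Reg3b, the member with the highest FPKM in controls, had 5521, 10401 and 3063 CPM in wild type female controls 1, 2 and 3 and 149, 89.3 and 838 CPM after succinate, where the middle value is the library labelled female wild type succinate 2. In Ptk6-/- females it had 3081, 4717 and 11106 CPM in controls and 986, 154 and 110 CPM after succinate. The 6 female succinate libraries were therefore all below the 6 female controls, although levels varied several-fold within each group. Over both genotypes the change was -4.01 on the log2 scale (standard error 0.77, 95% interval -5.70 to -2.33, edgeR adjusted p = 0.0376). Without the library labelled female wild type succinate 2 it was -3.78 and no longer passed (edgeR adjusted p = 0.0871), as in 10 of the 12 fits that each leave out 1 female library (-4.85 to -3.68).

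Reg3g, which binds Gram-positive bacteria, had 2704, 5270 and 1876 CPM in wild type female controls and 148, 61 and 433 CPM after succinate. In Ptk6-/- females it had 1949, 2662 and 13559 CPM in controls and 575, 150 and 87.6 CPM after succinate. Again no succinate library reached the lowest control. Over both genotypes the log2 estimate was -4.19 (standard error 0.74, 95% interval -5.80 to -2.58, edgeR adjusted p = 0.0234), and without the library labelled female wild type succinate 2 it was -3.97 (edgeR adjusted p = 0.0609). Leaving out 1 female library at a time gave -4.80 to -3.51, and the call was lost in 6 of 12 such fits.

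Reg4, the secretory cell lectin, had 37.5, 47.8 and 64.8 CPM in wild type female controls and 2910, 1269 and 105 CPM after succinate. In Ptk6-/- females it had 36.6, 18.8 and 70 CPM in controls and 571, 3208 and 867 CPM after succinate. Each female succinate library was above each female control, but wild type succinate 3, at 105 CPM, lay nearest to the controls. The change was 5.02 on the log2 scale (standard error 0.76, 95% interval 3.37 to 6.67, edgeR adjusted p = 0.00956). Reg4 was the member whose call held without the library labelled female wild type succinate 2, at 5.07 (edgeR adjusted p = 0.0247). Its call was lost, with values of 4.94, 5.01 and 4.99, without wild type control 1, wild type control 2 or Ptk6-/- control 1 (edgeR adjusted p = 0.0517, 0.0559 and 0.0501).

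Reg3a had 43.8, 45.9 and 78.6 CPM in wild type female controls against 3.82, 1.33 and 35.3 CPM after succinate, and 22.6, 28.2 and 149 CPM in Ptk6-/- female controls against 16.9, 1.74 and 1.97 CPM. In both genotypes the succinate libraries lay below the controls of that genotype, although wild type succinate 3 was above 2 of the Ptk6-/- controls. Over both genotypes it had an estimate of -2.64 on the log2 scale (standard error 0.86) and missed the threshold (edgeR adjusted p = 0.210). Without the library labelled female wild type succinate 2 it was -2.37 (edgeR adjusted p = 0.329), and without wild type succinate 3, the highest of the succinate libraries, it was -3.84 and was called (edgeR adjusted p = 0.0223). Reg1 had 0.875 to 2.87 CPM in the 6 female controls and 1.07 to 5.11 CPM in the 6 female succinate libraries. Those ranges overlap, and the log2 estimate was 0.35 with a standard error of 0.48 (edgeR adjusted p = 0.826), or 0.52 without the library labelled female wild type succinate 2.

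Reg3b, Reg3g and Reg4 had no overlap between the 6 control and 6 succinate libraries of females, which held for 1.64% of the genes tested. Within 1 genotype, 4 members (these and Reg3a) had no overlap between 3 controls and 3 succinate libraries in wild type and in Ptk6-/- females. That held for 13.3% of all genes in wild type and 21.2% in Ptk6-/- females, so non-overlap within a genotype is common in these data.

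Taken 1 genotype at a time, the female estimates had the same direction in both genotypes and none was called. In wild type females edgeR called 0 of 5 members and 0% of 18872 genes, with 3 members at an unadjusted p under 0.05. DESeq2 called 3 members in this comparison (1.38% of all genes) and limma's voom with quality weights 2 (0.196%). The log2 fold changes in wild type females were -4.13 for Reg3b, -3.92 for Reg3g, -2.04 for Reg3a, 4.86 for Reg4 and 0.23 for Reg1. Without the library labelled female wild type succinate 2 they were -3.66, -3.48, -1.50, 4.95 and 0.57 in the same order, with edgeR adjusted p of 0.701 or more. In Ptk6-/- females edgeR called 0 of 5 members and 0.0879% of 19334 genes, with 4 members at an unadjusted p under 0.05. DESeq2 called 4 members there (2.25% of all genes) and voom 1 (1.03%). The values were -3.96 for Reg3b, -4.52 for Reg3g, -3.32 for Reg3a, 5.19 for Reg4 and 0.43 for Reg1. Leaving out 1 library of Ptk6-/- females at a time gave -5.59 to -3.26 for Reg3b and -5.69 to -3.12 for Reg3g. The same fits gave -5.18 to -1.93 for Reg3a, 4.08 to 5.78 for Reg4 and -0.45 to 0.79 for Reg1. The genotype by succinate interaction in females called 0 of 5 members (0 at an unadjusted p under 0.05, lowest edgeR adjusted p = 0.930, 0% of 20531 genes) and DESeq2 and voom called 0 too. The 95% interval of this difference was wide, -2.76 to 3.21 for Reg3b, -3.37 to 2.29 for Reg3g, -4.75 to 2.31 for Reg3a, -2.44 to 3.14 for Reg4 and -1.83 to 2.34 for Reg1.

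In males, Reg3b had 3201, 3427 and 4202 CPM in wild type controls and 2509, 4769 and 2418 CPM after succinate. In Ptk6-/- males it had 2748, 4576 and 6194 CPM in controls and 12029, 5604 and 7285 CPM after succinate, of which the first is a library with much Rn18s-rs5. Reg3g had 1821, 2025 and 2311 CPM in wild type male controls and 1286, 2214 and 795 CPM after succinate, and 1560, 2974 and 3775 CPM against 6835, 3271 and 4409 CPM in Ptk6-/- males. The male control and succinate libraries overlapped for both genes in both genotypes.

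Reg4 had 34.2, 35.1 and 33.7 CPM in wild type male controls and 29.9, 65.2 and 238 CPM after succinate, so its mean rested on wild type succinate 3. In Ptk6-/- males it had 26.4, 18.7 and 9.8 CPM in controls and 50.5, 16.9 and 19.2 CPM after succinate. Reg3a lay between 22.6 and 53.1 CPM and Reg1 between 0.809 and 3.29 CPM in all 12 male libraries.

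The log2 fold changes in wild type males were -0.17 for Reg3b, -0.53 for Reg3g, -0.34 for Reg3a, 1.70 for Reg4 and 0.20 for Reg1, and edgeR called 0 of 5 members and 0% of 19183 genes, with 1 member (Reg4) at an unadjusted p under 0.05. DESeq2 called 0 members there and voom 1 (7.81% of all genes). Without wild type control 1 they were -0.22, -0.58, -0.26, 1.71 and -0.0087. In Ptk6-/- males they were 0.95 for Reg3b, 0.87 for Reg3g, -0.072 for Reg3a, 0.69 for Reg4 and 0.66 for Reg1, with 0 members called by edgeR, DESeq2 or voom, 0 at an unadjusted p under 0.05 and 0% of 18966 genes called. Without Ptk6-/- succinate 1 they were 0.50, 0.45, 0.011, -0.062 and 0.46, so the estimates of Reg3a and Reg4 changed sign. Over both genotypes Reg4 had a log2 estimate of 1.20 (95% interval 0.17 to 2.22, edgeR adjusted p = 0.539) and Reg3b 0.39 (95% interval -0.27 to 1.06, edgeR adjusted p = 0.669). Reg3g had 0.17, Reg3a -0.20 and Reg1 0.44. Without the 2 male libraries with much Rn18s-rs5 these values were 0.83 for Reg4, 0.14 for Reg3b, -0.062 for Reg3g, -0.12 for Reg3a and 0.23 for Reg1, so the estimate of Reg3g changed sign. With all 12 male libraries edgeR called 0 of 5 members and 0% of 20340 genes, with 1 member at an unadjusted p under 0.05, while DESeq2 called 0 and voom 1 (2.95% of all genes). The genotype by succinate interaction in males called 0 of 5 members and 0% of 20340 genes by edgeR, 1 at an unadjusted p under 0.05 (Reg3g), and 0 by DESeq2 or voom. It called 0 members by edgeR without wild type control 1 or without Ptk6-/- succinate 1 as well.

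**Figure D2:**
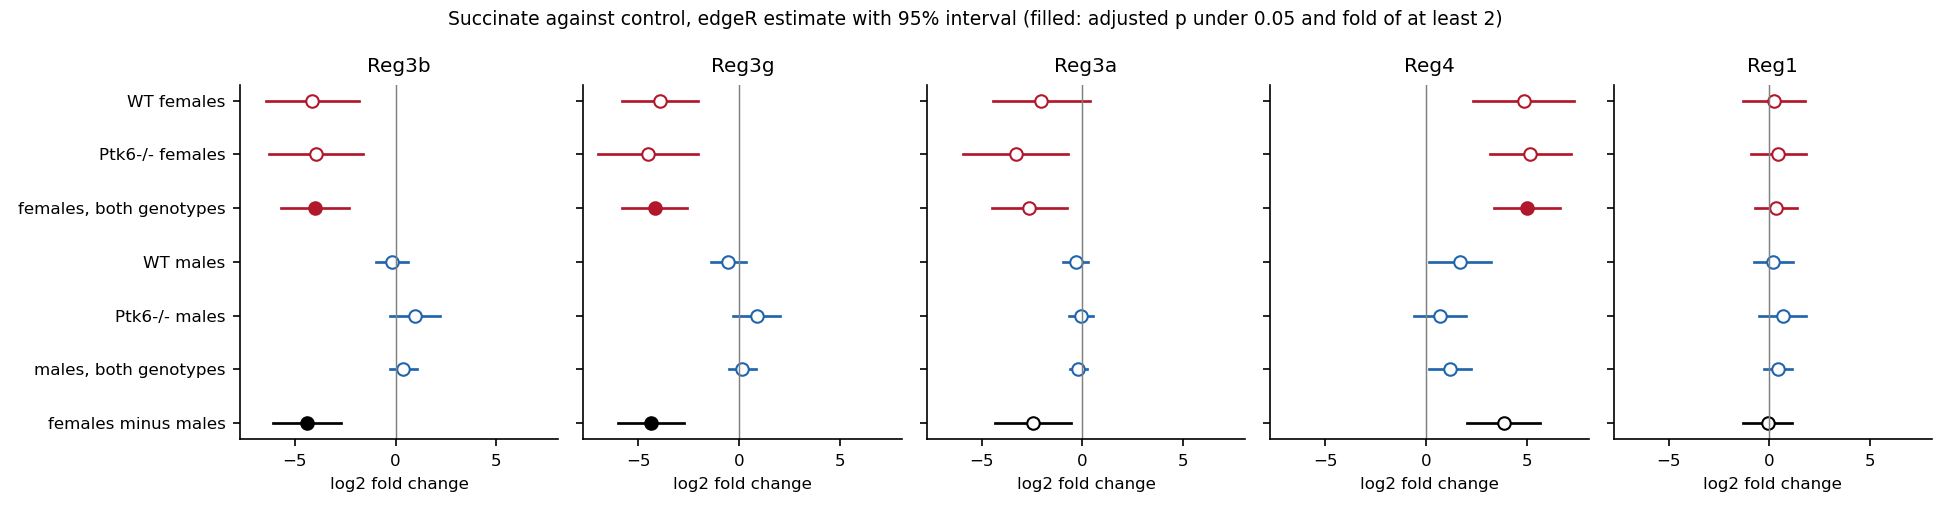
edgeR log2 fold change of succinate against control for each Reg gene (points) with its 95% interval (lines), in females (red), males (blue) and as the female minus the male effect (black), with filled points for calls. Reg3b and Reg3g are filled for both genotypes of females and for the difference between the sexes, and Reg4 only for both genotypes of females.

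The response of Reg3b and Reg3g differed between the sexes. The female minus the male succinate effect was -4.39 on the log2 scale for Reg3b (standard error 0.82, 95% interval -6.09 to -2.69) and -4.35 for Reg3g (standard error 0.79, 95% interval -6.00 to -2.71), each with an edgeR adjusted p of 0.0383. These were 2 of the 5 members, both lower, where 0.0738% of 21694 genes were called (0.0553% higher and 0.0184% lower). Reg4 had a difference of 3.86 (standard error 0.87, edgeR adjusted p = 0.117), Reg3a -2.46 (edgeR adjusted p = 0.412) and Reg1 -0.085 (edgeR adjusted p = 0.999), and these were not called. DESeq2 and voom each called 3 members (0.979% and 0.364% of all genes). Without the library labelled female wild type succinate 2, and without the 3 libraries that stand apart, the difference was 3.90 and 4.25 for Reg4, -2.19 and -2.27 for Reg3a, and 0.086 and 0.28 for Reg1, none of them called.

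The calls of the difference between the sexes depended on single libraries. Without the library labelled female wild type succinate 2 the values were -4.16 for Reg3b and -4.13 for Reg3g (edgeR adjusted p = 0.0737 for each), and without the 3 libraries that stand apart -3.94 and -3.92 (edgeR adjusted p = 0.175 and 0.173), when 0 of 21526 genes were called. In each of these the estimates had the same direction but were smaller, and neither gene was called. Leaving out each of the 24 libraries in turn gave -5.22 to -4.04 for Reg3b and -4.95 to -3.65 for Reg3g. The call was lost in 19 of the 24 fits for each gene.

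The makeup of Reg transcripts was compared within each library, where a share of the summed FPKM of the 5 genes does not depend on scaling between libraries. Such a share does depend on the gene lengths used for FPKM. In the 12 control libraries Reg3b made up 59.3 to 77.9% of the sum, Reg3g 20.6 to 39.1% and Reg4 0.132 to 1.7%. In the 6 female succinate libraries Reg4 made up 93.2, 91.9 and 9.48% in wild type 1, 2 and 3 and 32.5, 93.8 and 85.7% in Ptk6-/- 1, 2 and 3. Reg4 was thus the leading Reg transcript in 4 of these 6 libraries, and Reg3b kept the lead in wild type succinate 3 and Ptk6-/- succinate 1. In the 6 male succinate libraries Reg4 made up 0.22 to 8.46%, with the highest share in wild type succinate 3. The ratio of Reg4 to Reg3b by FPKM ran from 0.00177 to 0.0236 in controls, from 0.00295 to 0.11 in succinate males and from 0.14 to 23.4 in succinate females. The summed counts of the 5 genes were 0.513 to 2.02% of the library in female controls and 0.126 to 0.356% in succinate females, ranges that do not overlap.

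**Figure D3:**
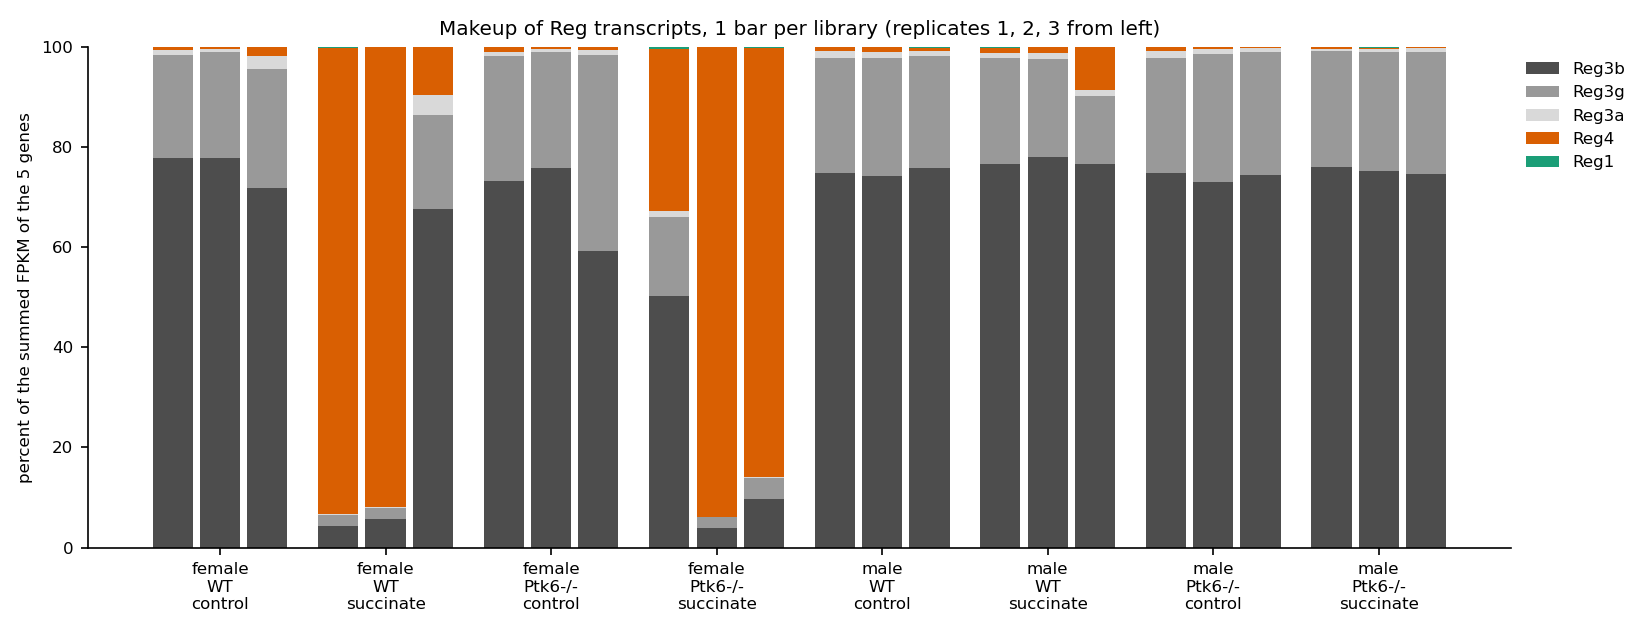
Percent of the summed FPKM of Reg3b, Reg3g, Reg3a, Reg4 and Reg1 contributed by each, with 1 bar per library in the order of replicates 1, 2 and 3 within a group. Reg3b leads in all controls (59.3 to 77.9%), and Reg4 leads in 4 of the 6 female succinate libraries (85.7 to 93.8%).

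Reg3b and Reg3g changed together, and the ratio between them varied far less than their levels. The count of Reg3g divided by that of Reg3b was 0.49 to 0.65 in 11 of the 12 controls and 1.22 in Ptk6-/- female control 3. In succinate females the ratio was 0.994, 0.683 and 0.517 in wild type 1, 2 and 3 and 0.584, 0.979 and 0.795 in Ptk6-/- 1, 2 and 3, and in succinate males it was 0.329 to 0.605. The 4 female succinate libraries with the least Reg3b thus had the higher ratios of the 6, a description with no test.

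**Figure D4:**
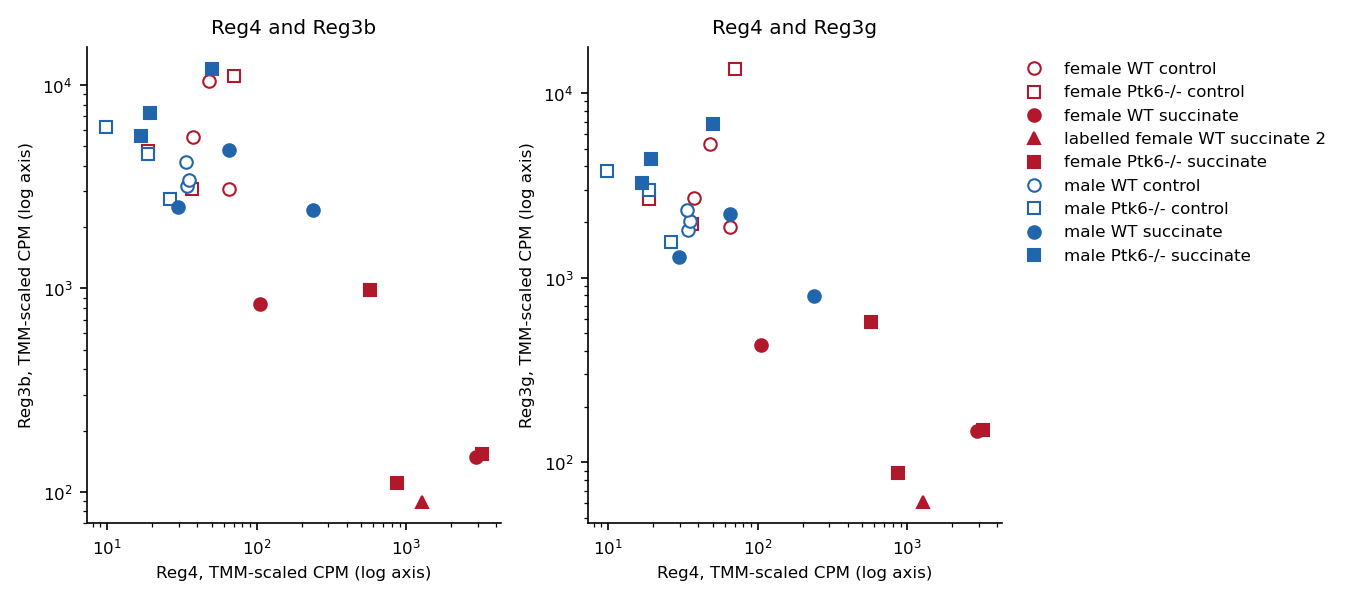
Reg4 against Reg3b (left) and Reg3g (right), TMM-scaled CPM on log axes, 1 point per library, with open symbols for controls and filled symbols for succinate. The 4 female succinate libraries with 867 to 3208 CPM of Reg4 are those with 89.3 to 154 CPM of Reg3b, and wild type male succinate 3 (238 CPM of Reg4) is the male library nearest to them for Reg4.

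Among the 12 succinate libraries those with much Reg4 also had many tuft cell transcripts. Summed over 27 tuft cell genes, such as the kinase Dclk1 and the cation channel Trpm5, the level was 1330, 1177, 1008 and 1195 CPM in the 4 female libraries with the most Reg4 (Ptk6-/- 2, wild type 1, the library labelled female wild type succinate 2, and Ptk6-/- 3). It was 698 CPM in Ptk6-/- female succinate 1, 474 CPM in wild type male succinate 3 and 431 CPM in wild type female succinate 3, and 177 to 357 CPM in the other 5 male libraries. The controls of both sexes had 207 to 314 CPM. The library labelled female wild type succinate 2 had the lowest Reg3b (89.3 CPM) and Reg3g (61 CPM) of the 6 female succinate libraries, and its Reg4 and tuft cell levels lay within the range of the other 5.

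Genotype alone moved no Reg gene past the test. In control males Reg4 had a mean of 34.3 ± 0.669 CPM in wild type and 18.3 ± 8.32 CPM in Ptk6-/- males (SD, n = 3 each), and its log2 estimate was -0.92 (edgeR adjusted p = 0.112). The other members had 0.30 (Reg3b), 0.42 (Reg3g), 0.10 (Reg3a) and 0.30 (Reg1). Without wild type control 1 the values were -0.87 for Reg4 and 0.26, 0.37, 0.19 and 0.11 for the others in that order. With all 6 control males edgeR called 0 of 5 members and 0.739% of 19218 genes, with 1 member at an unadjusted p under 0.05, DESeq2 called 0 and voom 1 (3% of all genes). In succinate-treated males, Ptk6-/- mice had 8306 ± 3332 CPM of Reg3b against 3232 ± 1332 CPM in wild type, and 4839 ± 1820 against 1432 ± 721 CPM of Reg3g (SD, n = 3 each). Reg4 went the other way, with 28.8 ± 18.8 CPM in Ptk6-/- and 111 ± 112 CPM in wild type. The libraries of the groups did not overlap for Reg3b, Reg3g or Reg1, which held for 8.66% of all genes, and overlapped for Reg4 and Reg3a. The log2 fold changes were 1.42 for Reg3b, 1.81 for Reg3g, -1.91 for Reg4, 0.38 for Reg3a and 0.79 for Reg1, each with an edgeR adjusted p of 1, so 0 of 5 members and 0% of 18904 genes were called, with 3 members at an unadjusted p under 0.05. DESeq2 called 0 members there and voom 3 (9.52% of all genes). Without Ptk6-/- succinate 1 the values were 0.97 for Reg3b, 1.39 for Reg3g, -2.64 for Reg4, 0.45 for Reg3a and 0.58 for Reg1 (edgeR adjusted p of 0.822 or more). Leaving out each library in turn gave -2.64 to -0.67 for Reg4, with -0.67 without wild type succinate 3.

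In control females edgeR called 0 of 5 members (0 at an unadjusted p under 0.05, lowest adjusted p 0.685) and 0.0158% of 19035 genes, DESeq2 called 0 and voom 1 (10.4% of all genes). In succinate-treated females it called 0 of 5 (0 at an unadjusted p under 0.05, lowest adjusted p 0.944) and 0% of 19180 genes, and DESeq2 and voom called 0. The group means of Reg3b in females were 6329 ± 3735 CPM in wild type and 6301 ± 4240 CPM in Ptk6-/- controls, and 359 ± 416 and 417 ± 494 CPM after succinate (SD, n = 3 each). Between the sexes in controls 0 of 5 members were called (1 at an unadjusted p under 0.05, Reg4, lowest edgeR adjusted p = 0.404), as were 0.0538% of 20428 genes, and DESeq2 and voom called 0 members, as did edgeR without wild type male control 1.

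The remaining Reg genes of the cluster were barely read. Reg2 had 0 counts in 23 libraries and 3 counts in Ptk6-/- female control 3. Reg3d had 5 to 39 counts in the 6 female controls and 0 counts in 5 of the 6 female succinate libraries, with 12 counts in Ptk6-/- succinate 1. Its CPM was 0.108 to 1.13 in female controls and 0 to 0.216 after succinate, and its estimate was not called (edgeR adjusted p = 0.137). Extl3, a glycosyltransferase described as a Reg receptor, had 17.6 to 31.3 CPM over all 24 libraries and a log2 estimate of 0.16 in females of both genotypes (edgeR adjusted p = 0.705).

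The estimates of genes known to act upstream of Reg3b and Reg3g were mostly below 0 in females of both genotypes, and 0 were called. Of 12 genes of the IL-22 pathway (the cytokine, its receptor chains, the IL-23 axis and JAK-STAT members) 10 were tested in females of both genotypes and 0 were called by edgeR. Their median log2 fold change was -0.46, against 0.016 over all genes, with 8 of 10 below 0. The sum of the list was 304 to 629 CPM in female controls and 235 to 450 CPM in succinate females. Il22 itself was near the floor, with 0 counts in 14 of the 24 libraries and at most 0.41 CPM, so its change could not be read. Socs3, a feedback inhibitor that STAT3 induces, had -0.99 (edgeR adjusted p = 0.324), and the kinase Jak1 had -0.39 (edgeR adjusted p = 0.491). Il22ra1, the receptor chain of the epithelium, spanned 2.85 to 112 CPM in female controls and 3.44 to 42.1 CPM after succinate, ranges that overlap, with a log2 estimate of -0.65 (edgeR adjusted p = 0.803). In control males it was the 1 gene of this list called between genotypes, at 28.8 ± 2.85 CPM in wild type and 98.7 ± 19.2 CPM in Ptk6-/- mice (SD, n = 3 each, edgeR adjusted p = 0.0114). Of 12 genes of microbial sensing, MyD88 and Toll-like receptors among them, 0 of 12 tested were called by edgeR, with a median of -0.32 and 9 below 0. The sum of this list was 175 to 212 CPM in female controls and 122 to 174 CPM in succinate females, ranges that do not overlap. The part of either list in the Reg results was not tested. The smallest p values there were those of Ticam1 (-0.62), Cd14 (-0.62) and Il18 (-0.67), with edgeR adjusted p of 0.279, 0.320 and 0.323.

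Other epithelial genes that IL-22 and STAT3 are known to induce moved in both directions. Of 12, 11 were tested, 2 rose and 1 fell, with a median of 0.56. Fut2, the fucosyltransferase of the gut surface, rose by 3.01 (standard error 0.39, edgeR adjusted p = 0.00386), and Duoxa2, the maturation factor of dual oxidase, rose by 2.39 (standard error 0.45, edgeR adjusted p = 0.0340), both on the log2 scale. Nos2, the inducible nitric oxide synthase, fell by 4.15 (standard error 0.76) with an edgeR adjusted p of 0.0294. Without the library labelled female wild type succinate 2 only Fut2 of this list was called.

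Some other antimicrobial products rose as Reg4 did, while few genes of the Paneth and goblet cell lists and none of the enteroendocrine list were called. Of 14 tested genes of a list of other intestinal antimicrobials 5 rose and 0 fell, and 4 (Ang4, Mptx1, Retnlb and Sprr2a3) were called without the library labelled female wild type succinate 2. The log2 fold change was 7.31 for Retnlb, a secreted goblet cell protein of type 2 responses (edgeR adjusted p = 0.00956), 5.56 for the mucosal pentraxin Mptx1 (edgeR adjusted p = 0.00211) and 3.12 for Sprr2a3 (edgeR adjusted p = 0.00181). Of 14 Paneth cell genes 1 rose, the angiogenin Ang4 (2.92, edgeR adjusted p = 0.0234), with a list median of 0.67. Mptx2 and Defa26 followed by p and were not called (edgeR adjusted p = 0.209 and 0.282). Of 19 goblet cell genes 1 rose (Retnlb, which 2 lists share), with a list median of 0.30, and Rep15 (0.97) and Spink4 (2.50) were not called. Of 17 enteroendocrine genes other than Reg4 itself 0 were called by edgeR, with a median of -0.31, and Chga, the granin of these cells, had -0.71 (edgeR adjusted p = 0.336). Gcg (-0.50) and Nts (-0.62) came next.

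The largest counts of calls were in the tuft and type 2 lists. Of 27 tested tuft cell genes 18 rose and 0 fell, with a median of 2.41, and 12 were called without the library labelled female wild type succinate 2. Siglecf (2.89), the actin regulator Avil (2.86) and Rgs13 (3.03) led by p, with edgeR adjusted p of 0.000742, 0.000753 and 0.00153. Of 16 tested genes of type 2 cytokines and their effectors 9 rose and 0 fell, with a median of 3.73, and 6 were called without that library. Pla2g4c, a phospholipase, had 7.33, and the gasdermins Gsdmc3 and Gsdmc4 had 3.83 and 3.74, with edgeR adjusted p of 1.52e-05, 0.000398 and 0.000403. In males of both genotypes edgeR called 0 genes of any of these lists, where it called 0% of 20340 genes.

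Markers of other tissues and gut regions were read beside these results. Enterocyte genes had a median of -0.56 in females of both genotypes, with 0 of 20 called by edgeR, led by p by Fabp2 (-1.89), Anpep (-1.47) and Rbp2 (1.39). Their sum was 26754 to 64184 CPM in female controls and 22149 to 42950 CPM in succinate females. Of 9 genes of the distal intestine 0 were called, with a median of -0.90, led by the ileal bile acid transporter Slc10a2 (-1.85), Fabp6 (-2.51) and Cyp4f14 (-1.07), and their sum was 4034 to 9275 CPM in female controls and 1814 to 6742 CPM in succinate females. Of 8 tested genes of the proximal intestine 1 fell, the iron exporter Slc40a1 (-1.13, edgeR adjusted p = 0.0240), before Gkn3 (2.44) and Onecut2 (1.79). The part of gut region in the Reg results was not tested. Of 14 lymphoid follicle genes 1 was called, Spib (2.19, edgeR adjusted p = 0.0231), which tuft cells also express and which the tuft list holds, and 0 were called without the library labelled female wild type succinate 2. Ccl20 (-1.91) and Gp2 (-1.15) followed.

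The pancreas expresses Reg genes strongly, so its markers were checked. Of 22 exocrine pancreas genes 14 were in the count table, and they fell at very different levels. The proteases Prss2, Cpa1 and Ctrb1 and the lipase Cel had at most 0.0607, 0.0703, 0.362 and 0.085 CPM in any library, and Cpb1 and Sycn at most 0.577 and 1.92 CPM. Ctrl had 0.747 to 3.02 CPM, Cela1 1.56 to 9.83 CPM and Rnase1 2.57 to 39.3 CPM. Higher levels were read for Pnliprp2 (28 to 2877 CPM), Clps (29 to 2014 CPM), Pnliprp1 (0 to 62.3 CPM) and Zg16, which is also a goblet cell gene (804 to 8678 CPM). The highest libraries for Pnliprp1, Pnliprp2, Clps, Rnase1 and Cela1 were female succinate libraries with much Reg4 (wild type 1 or Ptk6-/- 2). The part of these transcripts in the Reg results was not tested. The list's sum was 2136 to 8940 CPM in female controls and 2413 to 7009 CPM in succinate females. Of 10 tested, 2 rose in females, the lipases Pnliprp1 (5.01, edgeR adjusted p = 0.00765) and Pnliprp2 (4.17, edgeR adjusted p = 0.00921), and the colipase Clps had 3.27 (edgeR adjusted p = 0.0769). Of 14 tested heart muscle genes 0 were called by edgeR, with a median of 2.83 that the library labelled female wild type succinate 2 carries, led by Actc1 (5.96), Myh7 (3.70) and Tnnt2 (2.87). Of 4 Y-linked genes 1 was tested in females, Eif2s3y (5.17), and it was not called.

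For each member, the genes most like it in pattern, other than the members themselves, were ranked by Pearson correlation of log2 CPM. The ranking was over the 24 libraries among 18717 genes, as a description in which the succinate females set most of the spread. Correlations of deviations from the group means, given second, leave out the groups. Reg3b and Reg3g went with each other (0.98 and 0.95) more closely than with any gene named for either below. Reg4 went with Pmm1 (0.96 and 0.92), Fam221a (0.96 and 0.89), the Paneth cell angiogenin Ang4 (0.96 and 0.87), Clps (0.96 and 0.95) and the defensin pseudogene Defa-ps6 (0.96 and 0.96). It went against Nos2 (-0.95 and -0.80), Rnf152 (-0.95 and -0.86) and the brush border disaccharidase Mgam (-0.95 and -0.83).

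Reg3b went with Ocm (0.96 and 0.92), the uridine phosphorylase Upp1 (0.94 and 0.85), Slc25a48 (0.94 and 0.85), the complement component C2 (0.94 and 0.85) and Akr1b7 (0.93 and 0.76), and against Mmp15 (-0.93 and -0.77), the tuft cell gene Avil (-0.92 and -0.61) and Pik3r5 (-0.92 and -0.73). Reg3g went with Upp1 (0.95 and 0.91), C2 (0.95 and 0.86), Ocm (0.93 and 0.86), Soat2 (0.91 and 0.75) and the inflammatory caspase Casp4 (0.91 and 0.65), and against Mmp15 (-0.93 and -0.74), Acss1 (-0.92 and -0.68) and Dclk1 (-0.91 and -0.58). Upp1, C2, Ocm and Mmp15 are thus named for both. Reg3a went with Faah (0.96 and 0.91), Dnase1 (0.96 and 0.94), the gasdermin Gsdme (0.96 and 0.89), Akr1b7 (0.95 and 0.89) and Tspan5 (0.95 and 0.89), and against Gabre (-0.93 and -0.85), Pcsk6 (-0.91 and -0.81) and Aen (-0.90 and -0.93). Reg1, at 0.809 to 5.11 CPM, had no gene above 0.64 (Tceanc2) and none below -0.75 (Stra6).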

How the data were processed

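The authors made poly(A)-selected, strand-marking libraries from whole jejunum RNA, sequenced them as read pairs, aligned them with HISAT2 and assembled transcripts with StringTie (GRCm39 in the submitters' processing notes). The count table was deposited as whole numbers per gene, and the counting program is not given in the sources used here. The FPKM values were deposited as the authors computed them with ballgown, and 34471 genes had the same counts in both tables.

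Genes that reached 10 counts in 3 or more libraries of a comparison were tested with edgeR 4.0.16 (R 4.3.3, TMM, two-sided quasi-likelihood test). Calls needed a Benjamini-Hochberg adjusted p under 0.05 and a fold of at least 2. Effects over both genotypes were averages in 1 fit with 4 groups (8 groups between the sexes). Intervals are at 95%. Alternatives used DESeq2 1.42.0 and limma 3.58.1 (voom, or log2 of FPKM plus 1 or 0.1). Levels are TMM-scaled CPM, and likeness used log2 CPM with a prior count of 2. Exact tests of 3 against 3 cannot go below p = 0.1 and were not used. Simulated counts with known folds were tested first: in females of both genotypes 98% of genes changed 16-fold and 20% of genes changed 2-fold were recovered (19966 genes). Depth limits Reg1 most, at 10 to 284 counts a library. The labels number the libraries of a group as biological replicates.

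The members and gene lists were chosen with earlier results of these data known. In each list the 3 tested genes with the lowest p in females of both genotypes were named. For each member, the 5 most and 3 least correlated genes outside the 5 members were named. Some genes of the lists are not reported here.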

Additional observations from a re-analysis of the deposited data

Results flagged for a closer look

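Of the member results, 4 were picked out because the effect of succinate differed between females and males. By the test of the difference itself, over both genotypes, the female minus the male effect was -4.39 on the log2 scale for Reg3b and -4.35 for Reg3g (edgeR adjusted p = 0.0383 for each). Among Ptk6-/- mice, every female succinate library was below the female control mean and every male succinate library above the male control mean. The mean difference between these deviations was -5.30 for Reg3b and -5.22 for Reg3g on the log2 scale, or -4.99 and -4.94 without Ptk6-/- male succinate 1, and this difference was not tested within the genotype. The Ptk6-/- male libraries overlapped, with Reg3b at 5604 CPM in the lowest succinate library and 6194 CPM in the highest control. For Reg3g these levels were 3271 and 3775 CPM. The share of all genes with this sign pattern was not counted.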

How the results depend on the processing

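In females of both genotypes 3 members were called, 4 (with Reg3a) with all 24 libraries in 1 fit, 0 with the replicate block, 1 with the length offset and the replicate block, 1 without the 3 libraries that stand apart (an alternative chosen after seeing the data), and 0 to 4 when 1 library was left out (4, with Reg3a, without wild type succinate 3, 0 without wild type control 1 or 2, and 1 without wild type succinate 1 or 2, Ptk6-/- control 1, or Ptk6-/- succinate 2 or 3). Over all genes, 160 of 20531 were called in the main fit, 446 of 21694 with all 24 libraries in 1 fit and 53 of 20531 with the replicate block. The length offset with the replicate block called 77 of 20531, and the fit without the 3 libraries 83 of 20348. The member count of the sex by succinate interaction went from 2 to 0 with limma on log2(FPKM + 0.1), the replicate block, the length offset with the replicate block, or without those 3 libraries, to 1 with the length offset, and to 0 to 4 with 1 library left out (4 without wild type female succinate 3). Over all genes this interaction called 16 of 21694 in the main fit, 13 with the length offset, 4 with the length offset and the replicate block, and 0 with the replicate block. It called 0 of 14099 with limma on log2(FPKM + 0.1). Member counts of 0 became 3 with DESeq2, 2 with voom, 3 with all 24 libraries in 1 fit and 0 to 4 with 1 library left out (4 without succinate 3) in wild type females. They became 4 with DESeq2, 1 with voom, 1 with limma on either FPKM scale and 3 with all 24 libraries in 1 fit in Ptk6-/- females. With all 24 libraries in 1 fit, 87 of 21694 genes were called in wild type and 132 in Ptk6-/- females. Limma on log2(FPKM + 1) and log2(FPKM + 0.1) called 33 and 39 of 14271 genes in Ptk6-/- females. In wild type males the member count became 1 with voom and 0 to 1 with 1 library left out (1 without succinate 1), and in males of both genotypes 1 with voom. Between genotypes it became 1 with voom and 0 to 1 with 1 library left out (1 without Ptk6-/- control 3) in control females, 1 with voom in control males and 3 with voom in succinate-treated males. The cause was not tested. Same-numbered libraries correlated at -0.43 to 0.29 (4 of 24 pairs over 0.1), and 0 of 8 comparisons had every pair over 0.1. These are deviations from means of 3 libraries, so they cannot exclude that the numbers pair the libraries.

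Reversals touched members that were not called. With voom the log2 value was -0.12 for Reg1 in wild type males, -0.25 for Reg3g in males of both genotypes, 0.37 for Reg1 between the sexes and -0.28 for Reg1 between genotypes in control males. With limma on log2(FPKM + 1) and log2(FPKM + 0.1) it was 0.16 and 0.16 for Reg3b in wild type males, -0.11 and -0.11 for Reg4 in Ptk6-/- males, -0.058 and -0.058 for Reg3g in males of both genotypes, and -0.26 and -0.28 for Reg3a between genotypes in succinate-treated males. Reg1 between the sexes was 0.052 with limma on log2(FPKM + 1), 0.074 with the length offset and 0.28 without the 3 libraries, and Reg3g in males of both genotypes was -0.062 without them. With 1 library left out, Reg1 ran from -0.66 to 0.59 in wild type females, -0.45 to 0.79 in Ptk6-/- females, -0.11 to 0.52 in females of both genotypes, -0.0087 to 0.51 in wild type males, -0.54 to 0.095 between the sexes and -0.11 to 0.63 between genotypes in control males. Reg3a ran from -0.30 to 0.036 and Reg4 from -0.062 to 1.09 in Ptk6-/- males, and Reg3g from -0.046 to 0.31 in males of both genotypes.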
